A study of Mus musculus with 8 samples.

Results

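T-bet, EOMES and AHR are 3 transcription factors that mark specialised subsets of T cells. The RNA of their genes Tbx21, Eomes and Ahr was followed in regulatory T (Treg) cells labelled WT or DKO. The DKO cells were labelled as having Cre with floxed genes of the Ca2+ sensors STIM1 and STIM2. The 3 genes were taken by symbol from the deposited table, which lists 52459 genes in 8 libraries. Treg cells, labelled as Foxp3+CD25+, came from spleen and lymph nodes of several pooled C57BL/6 females per sample, with no age given, and the methods describe a sort for CD4 and high CD25 with or without YFP. Libraries labelled DKO came from cells with Foxp3-YFPcre, in which Cre is driven by the Foxp3 gene, and floxed alleles labelled fl/f for Stim1 and fl/fll for Stim2. WT libraries came, as the methods state, from YFP-negative cells of heterozygous females, so that they were not selected on the Foxp3 reporter. The methods describe these females as floxed for Stim1 and Stim2, the same kind of mice that gave the DKO cells. By that account WT cells carry the floxed alleles too, and the sort separates the groups by YFPcre. Cells were either left unstimulated or cultured for 16 h on plate-bound antibodies to CD3 and CD28 at 1 µg/ml, with 2 libraries for each of the 4 combinations.

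T-bet drives the type 1 programme of T cells, in which interferon-gamma and IL-12 signalling induce Tbx21 and T-bet in turn activates genes such as Ifng and Cxcr3. EOMES is a T-box factor closely related to T-bet that is best known from CD8 T cells and natural killer (NK) cells and is scarce in most Treg cells. AHR is a ligand-activated receptor of the bHLH-PAS family that waits in the cytoplasm with HSP90 chaperones, enters the nucleus when it binds dietary, microbial or environmental ligands, pairs there with ARNT and induces genes of xenobiotic metabolism. T-bet marks Treg cells at sites of type 1 inflammation, and AHR is known for its role in Treg cells of the gut.

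Values are normalized read counts, that is, reads per gene divided by a size factor for each library. Libraries held 11851853 to 16306540 reads on genes, so that 1 read was worth 0.759 to 1.48 normalized counts. Foxp3, which defines Treg cells, stood at 10001 and 8159 in unstimulated WT and 4947 and 4258 in unstimulated DKO libraries. After stimulation Foxp3 was 8525 and 11918 in WT and 4474 and 7253 in DKO libraries. Both DKO libraries thus lay below both WT libraries in each state, as for 27.1% of all genes at rest and 23.1% after stimulation. Foxp3 was not called between genotypes in either state. Cd4 stood at 4496 to 10760 and Cd3e at 2508 to 3424 in all libraries. Stim1 stood at 1139 and 1377 in unstimulated WT and 1538 and 1868 in unstimulated DKO libraries, and at 645 and 673 in stimulated WT and 552 and 642 in stimulated DKO libraries, and Stim2 lay between 620 and 908 throughout. Counts per gene do not separate the deleted exons, so these values do not check the genotype labels. Markers of other cells differed between libraries. The sum of 12 macrophage markers was 1675 and 10110 in the unstimulated DKO libraries against 451 and 471 in WT. Of the 11 tested, 7 were called higher there, beside 1.38% of all genes. Their median log2 fold change was 4.54, or 3.81 with genes at the floor of 3 reads set to their bound. After stimulation this sum was 202 to 333 in WT and 366 to 457 in DKO libraries, with 0 called. The sum of 8 B cell markers was 287 to 338 in unstimulated WT, 763 to 3193 in unstimulated DKO, 172 to 933 in stimulated WT and 308 to 1421 in stimulated DKO libraries, with a median log2 fold change of DKO over WT cells of 3.06 at rest and 0.81 after stimulation. Replicate 1 of the unstimulated DKO, stimulated WT and stimulated DKO groups each held the larger B cell sum. In bulk RNA, fewer cells of a type and less RNA per cell cannot be told apart. Unstimulated and stimulated libraries were also sequenced on different lanes, as the read file names in the labels show. Stimulation and lane therefore cannot be told apart. No library is labelled as cultured for 16 h without the antibodies, so the antibodies and the culture cannot be told apart either.

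Ahr was the most abundant of the 3 factors per kilobase of exon at rest and the one with the clearest difference between genotypes. In unstimulated cells, WT libraries held 1640 and 1479 normalized counts and DKO libraries 460 and 508. Both DKO libraries lay far below both WT libraries, an order without overlap that 27.1% of genes shared, and the replicates of each group lay close together, with means of 1559 ± 114 and 484 ± 33.4 (SD, n = 2 each). The difference amounted to a 3.22-fold lower level in DKO cells (log2 fold change -1.69, SE 0.22, 95% confidence interval -2.17 to -1.20, limma, adjusted p = 0.00593). All comparisons used limma across 15419 genes, and a gene was called where the adjusted p was under 0.05 and the change exceeded 1.5-fold. In this comparison 4.73% of all genes were called, 1.38% as higher and 3.35% as lower in DKO cells, and Ahr was the only 1 of the 3 factors among them. The log2 fold change was -1.62 without the DKO library that held the most macrophage transcripts. The other DKO library also held more of them than WT, with a marker sum of 1675 against 451 and 471. The part of other cells in the Ahr values was not tested. The call rested on having both WT libraries, since it was lost without WT replicate 3 (adjusted p = 0.149) or WT replicate 4 (adjusted p = 0.0563), although the log2 fold change stayed between -1.76 and -1.61 when any library was left out.

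**Figure D1:**
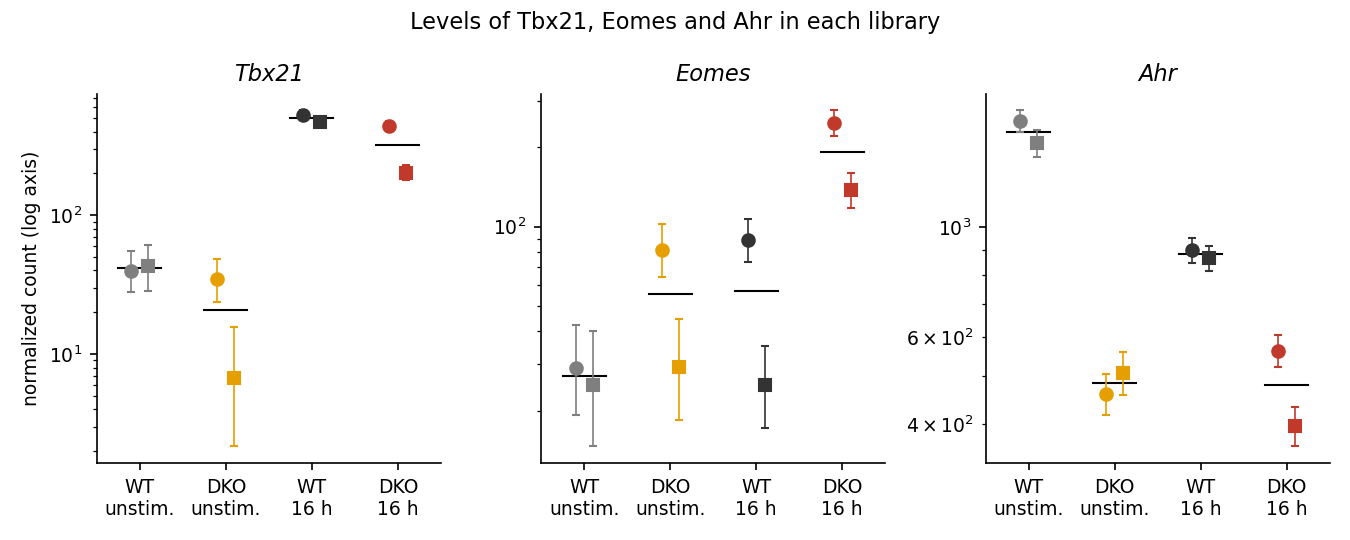
Normalized counts of Tbx21, Eomes and Ahr in each of the 8 libraries on a log axis, with circles and squares for the 2 libraries of a group, 95% Poisson counting intervals as bars and the group mean as a line. Ahr sits at 1479 to 1640 in unstimulated WT libraries and at or below 563 in all DKO libraries, while Tbx21 rises with stimulation in both genotypes.

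After stimulation, Ahr was 899 and 866 in WT libraries and 563 and 396 in DKO libraries. The DKO libraries again lay below both WT libraries, as was the case for 23.1% of all genes, with another 24.3% apart in the other direction. The level was 1.87-fold lower in DKO cells (log2 fold change -0.90, SE 0.22, 95% confidence interval -1.38 to -0.42), but the difference was not called in limma (adjusted p = 0.106). Only 0.272% of genes were called in stimulated cells, 0.162% as higher and 0.11% as lower, and none of the 3 factors was among them. DESeq2 on the recovered reads called it (log2 fold change -0.88, adjusted p = 0.0213), as did limma without DKO replicate 1 (log2 fold change -1.15, adjusted p = 0.0285).

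The change in Ahr with stimulation was examined within each genotype. In WT cells Ahr fell 1.76-fold, from 1559 ± 114 to 882 ± 22.8 (log2 fold change -0.82, limma, adjusted p = 0.0227), in a comparison in which 23.3% of genes were called, 10.2% higher and 13.1% lower. Scaling of the libraries bears on this value, because with equal library totals the median of all genes moved to 0.52 and the change of Ahr became -0.30 (adjusted p = 0.290), which is -0.81 relative to that median. Leaving out any 1 of the 4 WT libraries also ended the call (adjusted p = 0.101 to 0.146). In DKO cells the mean was 484 ± 33.4 before and 479 ± 118 after stimulation, and the ranges overlapped (log2 fold change -0.03, 95% confidence interval -0.52 to 0.45, adjusted p = 0.924). Among all genes, 25% were called in DKO cells, 13% higher and 12% lower. The difference between both responses, an interaction term, was 0.79 (SE 0.31, 95% confidence interval 0.10 to 1.47, limma, adjusted p = 0.569), and it was not called. For the interaction, 0% of genes were called by limma, though 1257 of 15419 had an unadjusted p under 0.05. The interaction was called for 0 genes by edgeR and for 50 by DESeq2. Ranked by level, Ahr was therefore lowest in both DKO groups, which overlapped, followed by stimulated WT and unstimulated WT cells, each apart from the next. The share of all genes with such an order was not counted.

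**Figure D2:**
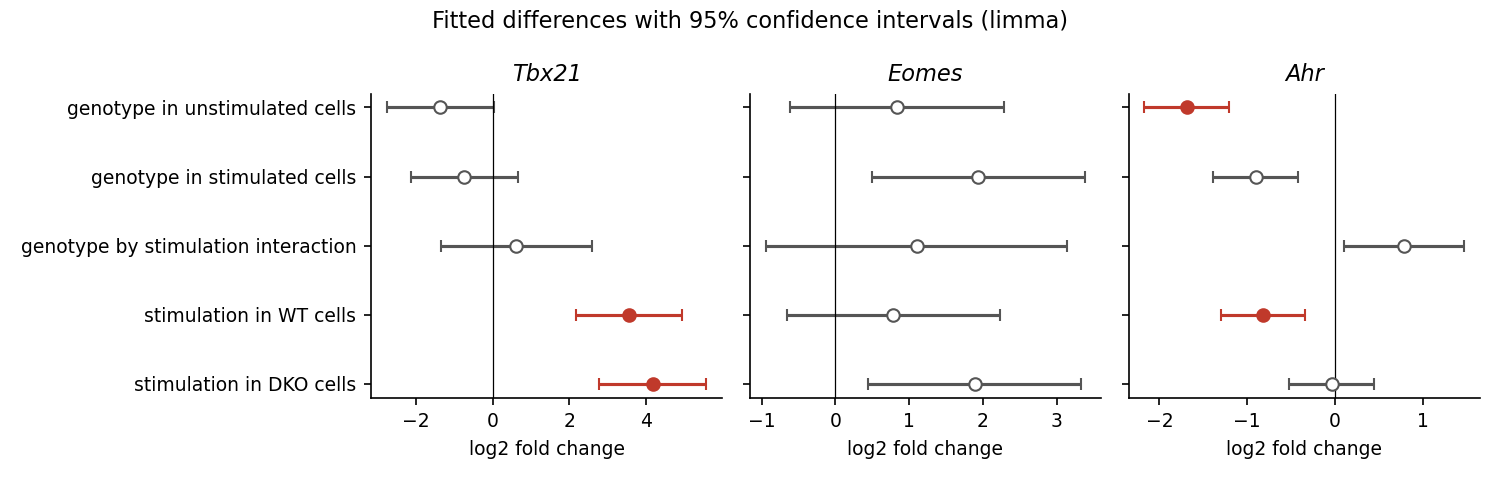
Log2 fold changes of Tbx21, Eomes and Ahr in the 5 comparisons with 95% confidence intervals from limma, filled in red where called. Ahr at -1.69 in unstimulated and -0.90 in stimulated cells lies left of 0 in both genotype comparisons, and Tbx21 lies at 3.55 and 4.18 in the stimulation comparisons.

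The genes of the AHR pathway were next examined by their roles. Among 6 genes for the partners and chaperones of AHR, 0 were called between genotypes at rest (median log2 fold change -0.33, all genes -0.01, 1 at an unadjusted p under 0.05) and 0 after stimulation (median -0.39, all genes 0.02, 3 at an unadjusted p under 0.05). Arnt, which encodes the DNA-binding partner of AHR, was 2989 and 3033 in unstimulated WT and 2046 and 3683 in unstimulated DKO libraries, which enclosed the WT values. With stimulation Arnt fell in WT cells by 1.31 on the log2 scale (adjusted p = 0.00591, limma) and in DKO cells by 0.99 (adjusted p = 0.017), to between 1177 and 1434 in all stimulated libraries. The second partner gene, Arnt2, stood at 386 and 303 in unstimulated WT, 107 and 48.1 in unstimulated DKO, 200 and 441 in stimulated WT and 77.0 and 10.1 in stimulated DKO libraries. All 4 DKO values of Arnt2 lay below all 4 WT values, but neither genotype comparison was called (limma, adjusted p = 0.127 and 0.0953). DKO libraries lay below both WT libraries for 27.1% of all genes at rest and 23.1% after stimulation. The share in both states at once was not counted. Hsp90aa1, a chaperone gene, fell with stimulation in WT and DKO cells (log2 fold change -0.80 and -1.38), and Ptges3, which encodes the co-chaperone p23, rose (0.90 and 0.83). The calls of Hsp90aa1 and Ptges3 in WT cells were lost when any 1 WT library was left out, and equal totals or quantile scaling ended that of Hsp90aa1. In DKO cells the call of Arnt was lost in 5 of 14 alternatives, with a range of -1.42 to -0.57 when single libraries were left out, the smallest change without unstimulated replicate 2. The DKO call of Ptges3 was lost in 2 of 14, among them the fit without stimulated replicate 1. In WT cells the Arnt call was lost without unstimulated replicate 4 or stimulated replicate 2.

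AHR binds DNA with ARNT at a core of 5 bases, GCGTG. This core was searched for on both strands in the 250 bases before each gene's start in the RefSeq set (GRCm38.p6), where 28.2% of 32851 windows, and at least 1 window of 30.9% of genes, held it. Of the 9 AHR target genes examined, 8 had a window and 4 of these held the core, namely Ahrr, Cyp1a1, Cyp1b1 and Tiparp. The windows of Tbx21 and Eomes held neither this core nor GGTGTG, the core bound by T-box factors. The 3 windows below belong to the tested targets with a core and are shown because their RNA followed different courses. Capitals mark the core or, on the other strand, CACGC. They lie at chr9:57697363-57697612 on the plus strand for Cyp1a1, at chr13:74292332-74292581 on the minus strand for Ahrr and at chr3:65528197-65528446 on the plus strand for Tiparp, each written 5′ to 3′ along the gene.
Cyp1a1: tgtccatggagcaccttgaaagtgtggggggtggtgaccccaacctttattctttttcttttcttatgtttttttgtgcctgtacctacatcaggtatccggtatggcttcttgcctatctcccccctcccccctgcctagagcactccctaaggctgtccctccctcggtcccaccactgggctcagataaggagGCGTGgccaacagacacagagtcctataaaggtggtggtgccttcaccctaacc
Ahrr: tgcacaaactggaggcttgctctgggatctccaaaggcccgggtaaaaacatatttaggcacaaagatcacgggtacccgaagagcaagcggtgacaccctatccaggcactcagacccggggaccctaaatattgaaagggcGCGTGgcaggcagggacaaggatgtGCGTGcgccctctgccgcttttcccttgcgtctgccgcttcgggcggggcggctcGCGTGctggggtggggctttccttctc
Tiparp: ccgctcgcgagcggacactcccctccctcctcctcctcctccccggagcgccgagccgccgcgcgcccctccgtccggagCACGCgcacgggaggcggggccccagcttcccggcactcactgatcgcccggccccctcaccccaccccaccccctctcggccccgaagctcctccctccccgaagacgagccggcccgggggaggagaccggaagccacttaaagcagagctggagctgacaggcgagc

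Of the 9 AHR targets, 5 were tested, and the others had means under 10 normalized counts over the 8 libraries. Between genotypes 0 of the 5 were called at rest (median log2 fold change -0.41, 1 at an unadjusted p under 0.05) and 0 after stimulation (median -1.55, 3 at an unadjusted p under 0.05). All 5 had a log2 fold change below 0 in stimulated cells, and in 4 of them the DKO libraries lay below both WT libraries, as did 23.1% of all genes, whose median was 0.02. Across the alternatives tried, the stimulated median ranged from -2.13 to -0.65. Gpr15, which encodes a homing receptor for the large intestine, was 265 and 326 in stimulated WT and 61.9 and 24.5 in stimulated DKO libraries. Gpr15 was 91.7 and 148 in unstimulated WT and 57.7 and 21.4 in unstimulated DKO libraries. Its genotypes did not overlap in either state, an order that 27.1% of all genes shared at rest and 23.1% after stimulation. Its log2 fold changes were -1.70 at rest and -2.88 after stimulation, and neither was called (limma, adjusted p = 0.109 and 0.0618).

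Ahrr, which encodes the AHR repressor, an inhibitor induced by AHR itself, stood at 5.40 and 19.2 in unstimulated WT and 5.24 and 5.34 in unstimulated DKO libraries. Stimulated WT libraries had 85.7 and 85.0 and stimulated DKO libraries 54.0 and 3.38, the latter resting on 4 reads. The 2 stimulated DKO libraries thus differed widely from each other, and the genotype difference was not called (log2 fold change -2.48, limma, adjusted p = 0.330). Nqo1, a quinone reductase gene, had 33.5 and 40.2 in stimulated WT and 18.3 and 7.60 in stimulated DKO libraries (log2 fold change -1.55, adjusted p = 0.334, limma).

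Cyp1a1, the classical AHR-induced cytochrome gene, was near 0 at rest, with 1.08 and 0 in WT and 0 and 4.01 in DKO libraries. It reached 93.5 and 63.8 in stimulated WT and 65.1 and 27.9 in stimulated DKO libraries. Cyp1a1 was called higher with stimulation in both genotypes (limma, adjusted p = 0.00308 in WT and 0.00954 in DKO cells), and the DKO call was lost without stimulated replicate 1 (adjusted p = 0.0582). The ratio of stimulated to resting cells was 126 in WT cells (95% exact interval 22.3 to 4994, from 204 against 1 read) and 26.7 in DKO cells (8.91 to 131, from 115 against 3 reads), where the intervals cover counting error only. Tiparp, another gene induced by AHR, went the other way. It stood at 2191 and 2400 in unstimulated WT and 1197 and 2485 in unstimulated DKO libraries, and fell to 599 and 570 in WT and 478 and 417 in DKO libraries. This fall was 3.92-fold in WT and 3.86-fold in DKO cells (limma, adjusted p = 0.00233 and 0.00188). The targets therefore did not move as a block with Ahr, whose level changed with stimulation in WT cells in the direction of Tiparp and opposite to Cyp1a1.

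**Figure D3:**
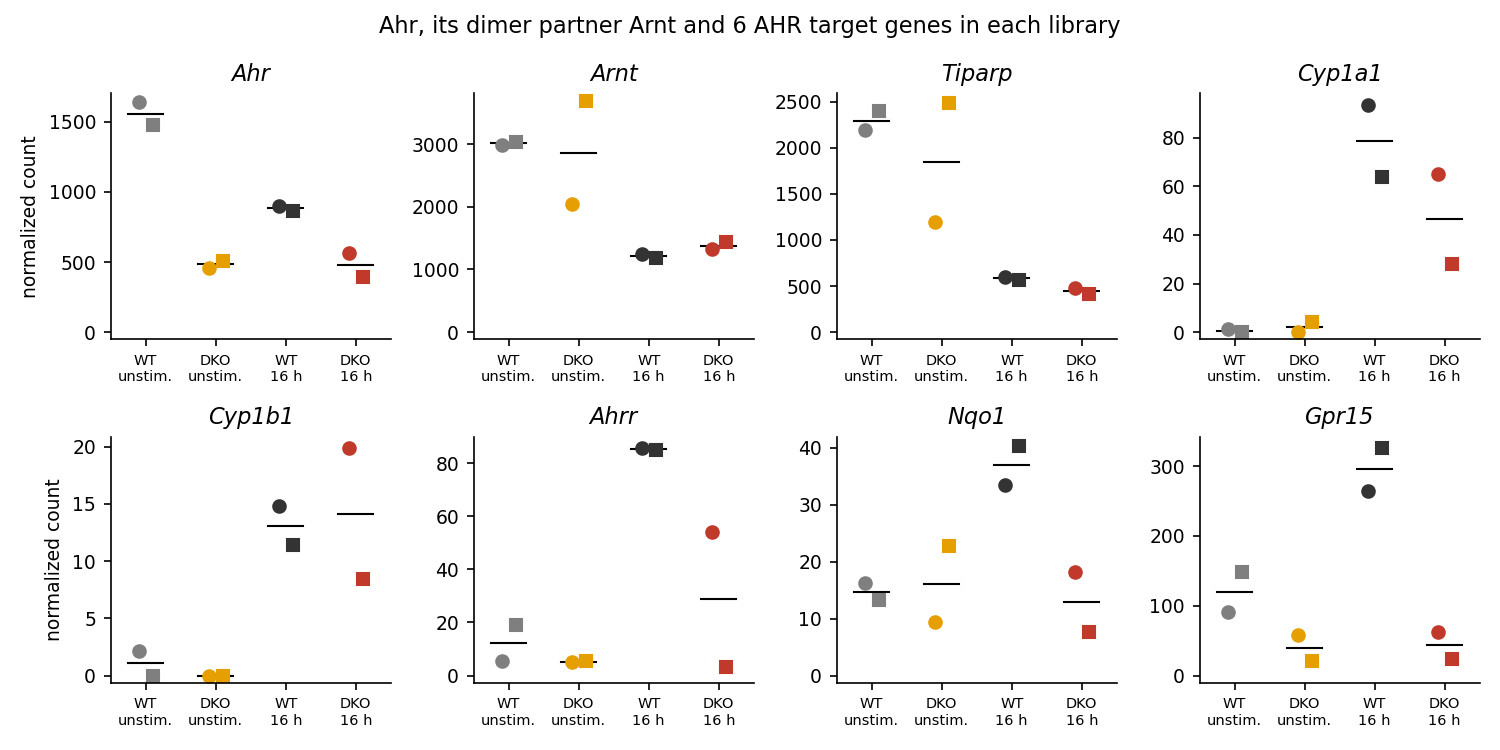
Normalized counts per library of Ahr, its partner gene Arnt and 6 AHR targets, grouped by genotype and stimulation. Gpr15 lies at 265 and 326 in stimulated WT and at 61.9 and 24.5 in stimulated DKO libraries, and Cyp1a1 is near 0 in all unstimulated libraries.

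Within the bHLH-PAS family, 14 of 19 genes were tested, and Ahr was the 1 gene called between genotypes at rest (median of the family -0.51), with 0 called after stimulation (median -0.02, 3 higher and 5 lower at an unadjusted p under 0.05). With stimulation in WT cells 6 members were called lower, which were Ahr, Arnt, Arntl, Epas1, Ncoa1 and Ncoa2. In DKO cells 4 were, which were Arnt, Arntl, Epas1 and Ncoa1. Of all genes, 13.1% were called lower in WT and 12% in DKO cells. Epas1, the gene of the hypoxia factor HIF-2 alpha, had the largest change of the family (log2 fold change -5.27 in WT and -2.98 in DKO cells, limma, adjusted p = 0.00178 and 0.016). The DKO call of Epas1 was lost without unstimulated DKO replicate 2 (adjusted p = 0.113) or stimulated DKO replicate 2 (adjusted p = 0.079). Hif1a, its close relative, was called higher in DKO cells (0.87, adjusted p = 0.0315, limma). The unstimulated DKO libraries held 3838 and 6970 and the stimulated ones 10206 and 8708. How the Hif1a call held with single libraries left out was not examined.

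Tbx21 showed the largest response to stimulation of the 3 factors, with no called difference between genotypes. It stood at 39.9 and 42.8 in unstimulated WT libraries and at 528 and 467 in stimulated WT libraries. This 11.7-fold rise (log2 fold change 3.55, SE 0.63, limma, adjusted p = 0.00425) far exceeded the spread between replicates. In DKO cells Tbx21 went from 34.6 and 6.68 to 438 and 203, an 18.1-fold rise in the fit on log2 values (log2 fold change 4.18, limma, adjusted p = 0.00177). The lowest value rested on 5 reads, whose exact 95% Poisson interval was 2.17 to 15.6 normalized counts. The ranges of stimulated and unstimulated libraries did not overlap in either genotype, as for 35% of genes that were higher and 36% that were lower in WT cells, and 30.8% and 30.6% in DKO cells. Without any 1 library the log2 change stayed between 3.47 and 3.64 in WT and between 3.07 and 5.28 in DKO cells.

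Both DKO libraries were lower than both WT libraries at rest and after stimulation, but the size of the difference was uncertain. After stimulation 23.1% of all genes shared this order. At rest the log2 fold change was -1.36 (SE 0.63, 95% confidence interval -2.75 to 0.03, limma, adjusted p = 0.238), and 27.1% of all genes had both DKO libraries below both WT libraries, with 26.5% above. DKO replicate 1, at 34.6, was close to WT, and replicate 2 was far below, so that the value was -0.25 without replicate 2 and -2.46 without replicate 1, where it was called (adjusted p = 0.0224). After stimulation the log2 fold change was -0.74 (95% confidence interval -2.13 to 0.66, limma, adjusted p = 0.663). The group means there were 497 ± 42.9 in WT and 320.1 ± 166 in DKO cells (SD, n = 2 each). The interaction was 0.62 (SE 0.89, adjusted p = 0.871, limma). Ranked by level, Tbx21 was lowest in unstimulated DKO, then unstimulated WT, stimulated DKO and stimulated WT cells, and no neighbouring ranges overlapped. At rest the 95% Poisson intervals of DKO replicate 1 (23.8 to 48.6) and WT replicate 3 (28.1 to 55.0) did overlap. The share of all genes with 4 groups apart was not counted.

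The receptors and signalling genes that induce Tbx21 were then described. Of 13 such genes, all tested, 0 were called between genotypes at rest (median log2 fold change -0.11, 1 higher and 2 lower at an unadjusted p under 0.05) and 0 after stimulation (median 0.28, 3 higher at an unadjusted p under 0.05). With stimulation 2 were called higher and 3 lower in WT cells, and 3 higher and 1 lower in DKO cells. Of all genes, 10.2% were called higher and 13.1% lower in WT cells, and 13% and 12% in DKO cells. Il12rb1, the shared receptor chain of IL-12 and IL-23, rose 9.03-fold in WT and 12.8-fold in DKO cells (limma, adjusted p = 0.00262 and 0.00111). By library it was 120 and 85.7 in unstimulated WT, 103 and 28.1 in unstimulated DKO, 873 and 976 in stimulated WT and 822 and 599 in stimulated DKO. This course resembled that of Tbx21, including the low value in unstimulated DKO replicate 2. Jak1, a kinase of the interferon receptors, fell in both genotypes (log2 fold change -1.37 and -1.31), and Jak2 and Il6st fell in WT cells (-2.18 and -0.997). The call of Il6st was lost without any 1 WT library and under equal totals or quantile scaling, and that of Jak2 without unstimulated WT replicate 4 or stimulated WT replicate 2.

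Il12rb2 encodes the other receptor chain of IL-12 and is itself a T-bet target. It was 66.9 and 78.3 in unstimulated WT and 106 and 131 in unstimulated DKO libraries. After stimulation it was 371 and 314 in WT and 1278 and 768 in DKO libraries. It was higher in both DKO libraries than in both WT libraries in each state, the reverse of Tbx21. This order held for 26.5% of all genes at rest and 24.3% after stimulation. Stimulation raised Il12rb2 by 4.66-fold in WT and 8.36-fold in DKO cells (limma, adjusted p = 0.00154 and 0.000306). Between stimulated genotypes the log2 fold change was 1.54, or 2.90-fold, and was not called in limma (adjusted p = 0.0624), while DESeq2 called it (adjusted p = 0.000172).

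Eomes was scarce at rest and reached its highest level in stimulated DKO cells. It stood at 29.1 and 25.1 in unstimulated WT, 81.8 and 29.4 in unstimulated DKO, 88.9 and 25.1 in stimulated WT and 248 and 138 in stimulated DKO libraries. Both stimulated DKO libraries lay above all others, whereas stimulated WT replicate 2 was no higher than resting cells. For 24.3% of all genes both stimulated DKO libraries lay above both stimulated WT libraries. The means of the stimulated groups were 57.0 ± 45.1 in WT and 193 ± 77.9 in DKO cells. In the fit on log2 values the stimulated genotypes differed 3.84-fold (log2 fold change 1.94, SE 0.65, 95% confidence interval 0.49 to 3.39). This difference was not called in limma (adjusted p = 0.208). At rest the log2 fold change was 0.84 (95% confidence interval -0.61 to 2.28, limma, adjusted p = 0.493), and it shrank to 0.11 without DKO replicate 1. Leaving out single libraries moved the stimulated value between 1.05 without WT replicate 2 and 2.83 without WT replicate 1. The interaction was 1.10 (adjusted p = 0.764, limma).

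With stimulation, the log2 change of Eomes was 0.79 in WT cells, where the ranges overlapped (limma, adjusted p = 0.408), and it turned to -0.11 without stimulated WT replicate 1. In DKO cells both stimulated libraries lay above both unstimulated ones, as for 30.8% of all genes. The log2 change of Eomes there was 1.89 and narrowly missed the threshold (limma, adjusted p = 0.0577). Several alternatives called it, among them equal library totals (2.27, adjusted p = 0.0257), a pseudocount of 5 (1.797, adjusted p = 0.049) and DESeq2 (1.77, adjusted p = 0.027). Ranked by level, Eomes was lowest in unstimulated WT cells, then came unstimulated DKO and stimulated WT cells, which overlapped, and stimulated DKO cells were highest.

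Markers of CD8 T and NK cells, in which EOMES is abundant, varied in the same libraries. Summed over 7 such genes, they were 330 and 307 in unstimulated WT, 1045 and 314 in unstimulated DKO, 502 and 218 in stimulated WT and 1028 and 280 in stimulated DKO libraries. In each of the 3 groups with replicates 1 and 2, replicate 1 held both the larger marker sum and the larger Eomes value. Stimulated DKO replicate 2 had a marker sum of 280 with an Eomes value of 138, and unstimulated WT replicate 4 had 307 with 25.1. These 2 libraries also differ in genotype, stimulation and lane. Cd8b1, 1 of the 7 markers, made up 145 of the 280 and 180 of the 307. Cd8a, which encodes the CD8 alpha chain, had 36.7 and 28.1, 146.8 and 65.4, 220 and 16.0, and 315 and 91.2 in the same order of groups. Unlike the marker sum, Cd8a was higher in stimulated DKO replicate 2 (91.2) than in unstimulated WT replicate 4 (28.1). Of the 7 markers 6 were tested, and 0 were called between genotypes at rest (median log2 fold change 1.77, 1 at an unadjusted p under 0.05) or after stimulation (median 0.73, 0 at an unadjusted p under 0.05). Klra8 had 0 reads in 3 libraries. The methods describe a sort for CD4 and high CD25, and the part of CD8 T and NK cells in the Eomes values was not tested.

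**Figure D4:**
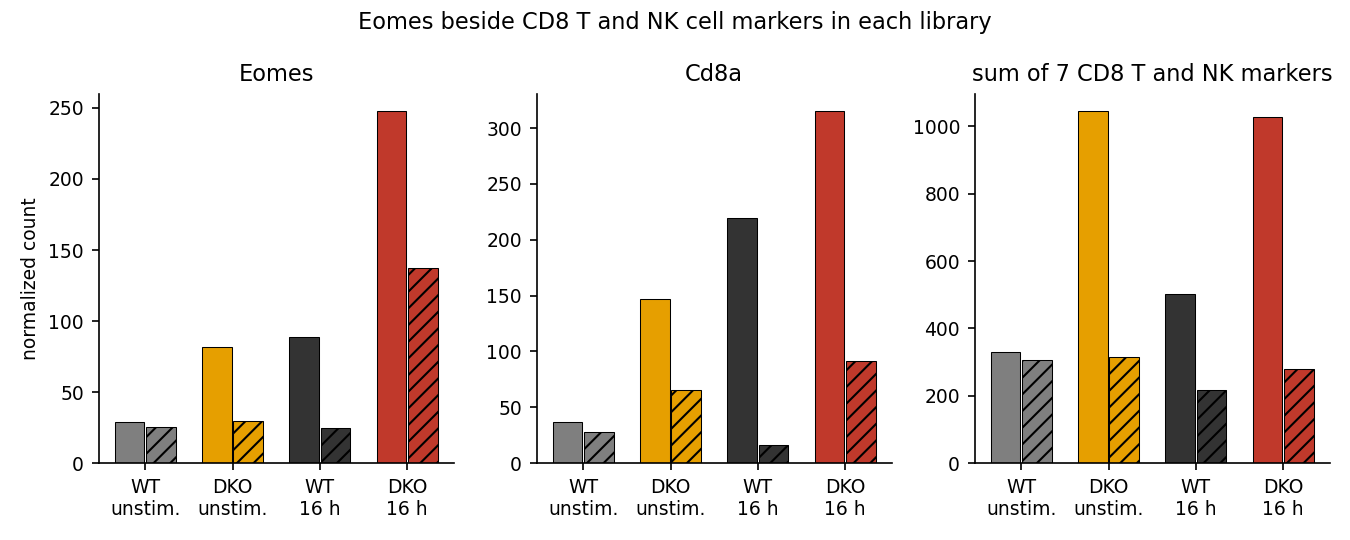
Bars of normalized counts, from 0, for Eomes, Cd8a and the sum of 7 CD8 T and NK markers in each group, plain for the first and hatched for the second library. Eomes reaches 248 and 138 in stimulated DKO libraries, and the marker sum is 1028 and 280 there.

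The RNA levels of the 3 genes were also compared per length. Per kilobase of exon, the mean level of Tbx21 was 16.6 in unstimulated WT, 8.30 in unstimulated DKO, 199.9 in stimulated WT and 129 in stimulated DKO cells. Eomes had 6.53, 13.4, 13.7 and 46.4 per kilobase in the same order, and Ahr 253, 78.4, 143 and 77.7. Thus Ahr exceeded both T-box genes at rest, while after stimulation Tbx21 lay above Ahr within each library of both genotypes. In stimulated DKO cells Tbx21 had 176 against 91.2 for Ahr in replicate 1, and 81.4 against 64.1 in replicate 2. The ratio of Eomes to Tbx21 per kilobase, a measure chosen after the values were seen, was 0.437 and 0.351 in unstimulated WT and 1.42 and 2.63 in unstimulated DKO libraries. It was 0.101 and 0.0321 in stimulated WT and 0.339 and 0.407 in stimulated DKO libraries. In each state the DKO libraries had the higher ratio, without a test, and the highest ratio rested on 5 reads of Tbx21. The exon lengths behind these values were 2488 bases for Tbx21, 4155 for Eomes and 6173 for Ahr. In GRCm38.p6, Tbx21 lies at chr11:97098007-97115331, Eomes at chr9:118478186-118486132 and Ahr at chr12:35497979-35534989.

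Of 17 T-box genes, Tbx21 and Eomes included, 5 were tested, and the others were Tbr1, Tbx6 and Mga. Between genotypes 0 of these 5 were called at rest (median log2 fold change 0.54, 1 at an unadjusted p under 0.05) and 0 after stimulation (median 0.65, 2 at an unadjusted p under 0.05, Eomes and Tbr1). With stimulation Tbx21 was the 1 T-box gene called higher in WT and in DKO cells. Tbr1, the closest relative of Eomes, was called lower in WT cells, from 30.2 and 45.8 to 7.79 and 3.04 (log2 fold change -2.68, limma, adjusted p = 0.0129). That call was lost without any of 3 WT libraries (adjusted p = 0.062 to 0.121).

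Genes that T-bet and EOMES activate were described as a list of 25, of which 22 were tested and 1, Il12rb2, was also in the list of inducing genes. At rest 0 were called higher and 2 lower in DKO cells (median log2 fold change 0.07), beside 1.38% and 3.35% of all genes. After stimulation 0 were called (median -0.03, 1 higher and 3 lower at an unadjusted p under 0.05). The stimulated median was -1.15 without DKO replicate 1 and 1.21 without DKO replicate 2, so it depended on single libraries. The T-box core GGTGTG was present in the windows of 6 of the 18 targets that had one (Fasl, Gzmk, Il18r1, Nkg7, Xcl1 and Zeb2), beside 18.3% of all genes counted the same way and 16.3% of windows. Klrg1, a receptor of terminally differentiated effector cells, was 2136 and 1715 in unstimulated WT and 155 and 20.0 in unstimulated DKO libraries (log2 fold change -5.06, limma, adjusted p = 0.0252). Gzmb, which encodes the protease granzyme B, was 1714 and 950 against 156 and 115 (log2 fold change -3.24, limma, adjusted p = 0.0234). Both genes thus lay far apart between genotypes, although both calls were lost without either WT library or without DKO replicate 2, and when every gene above 0 was tested.

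Cxcr3, a chemokine receptor gene that depends on T-bet, was 207 and 183 in unstimulated WT, 89.1 and 25.4 in unstimulated DKO, 176 and 121 in stimulated WT and 98.5 and 14.4 in stimulated DKO libraries. Its DKO libraries lay below the WT libraries in each state, as those of Tbx21 did. Of all genes, 27.1% had this order at rest and 23.1% after stimulation. The log2 fold changes of Cxcr3, -2.01 and -1.91, were not called (limma, adjusted p = 0.173 and 0.314). With stimulation 3 targets were called higher and 0 lower in WT cells, and 7 higher and 0 lower in DKO cells, where 10.2% and 13% of all genes were called higher. The 3 were Il12rb2 and the chemokine genes Ccl3 and Ccl4, and in DKO cells Ifng, Il2rb, Gzmb and Xcl1 were added. Whether the 2 responses differ was tested only gene by gene, with 0 of the 22 targets called for the interaction in limma (1, Gzmb, at an unadjusted p under 0.05). Ifng, the signature cytokine of type 1 cells, was 899 and 322 in stimulated WT and 1201 and 198 in stimulated DKO libraries, with replicate 1 high in both genotypes (log2 fold change -0.14, adjusted p = 0.968, limma). The DKO calls of Ccl3, Ccl4, Ifng and Xcl1 were lost without stimulated DKO replicate 1 or unstimulated DKO replicate 2, and that of Il2rb, the smallest at 0.64, was lost in 5 of 14 alternatives.

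**Figure D5:**
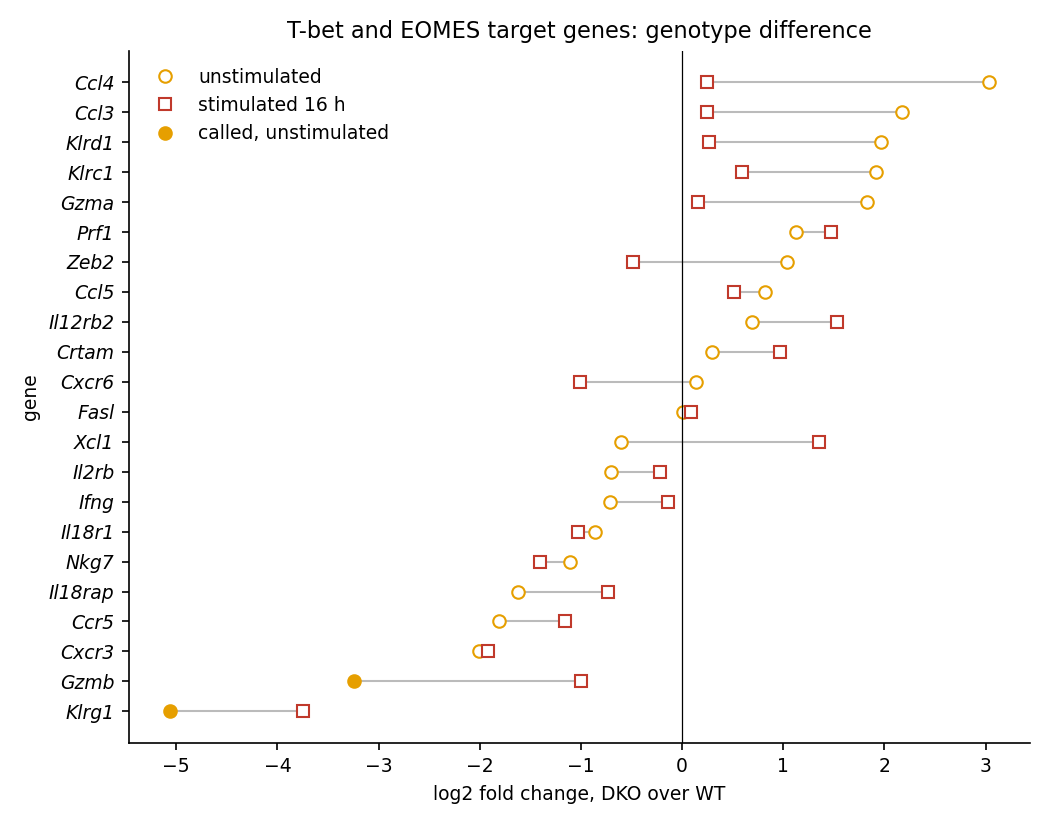
Log2 fold changes of DKO over WT cells for the 22 tested genes activated by T-bet and EOMES, with circles for unstimulated and squares for stimulated cells and filled symbols where called in limma. Klrg1 at -5.06 and Gzmb at -3.24 in unstimulated cells are the filled points, and Il12rb2 lies above 0 in both states.

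Ahr was set beside 12 other factors of Treg cell subsets. The study itself had picked Ahr and some of the 12 from these libraries as lower in DKO cells. Their direction, that of Ahr included, is therefore not independent evidence. At rest 0 of 12 were called higher and 7 lower in DKO cells, beside 1.38% and 3.35% of all genes. The median log2 fold change was -1.82 beside -0.01 for all genes. The 7 were Rora (-2.33), Maf (-1.73), Prdm1 (-2.74), Irf4 (-1.90), Batf (-2.07), Bhlhe40 (-2.28) and Nfil3 (-2.61); for Ahr the value was -1.69. All 7 calls were lost without unstimulated WT replicate 3 or WT replicate 4, as that of Ahr was. Over all alternatives Maf lost its call in 8 of 13, Rora in 5 and Bhlhe40 in 3, against 2 for Ahr. With single libraries left out, Rora ranged from -3.37 without DKO replicate 2 to -1.30 without DKO replicate 1, and Maf from -2.33 without DKO replicate 1 to -1.14 without DKO replicate 2. After stimulation 1 of 12 was called, Batf, a partner of the TCR-induced factor IRF4, at 1379 and 1186 in WT and 464 and 305 in DKO libraries (log2 fold change -1.76, limma, adjusted p = 0.0392). The Batf call was lost in 7 of 14 alternatives, and the median of the list was -1.02. Of the 7 Treg identity genes, Ctla4 and Ikzf2 were called lower in DKO cells at rest (log2 fold change -1.79 and -1.13, median of the list -0.65) and 0 were called after stimulation (median -0.15, 3 lower at an unadjusted p under 0.05).

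Finally, the tested genes whose log2 values over the 8 libraries ran most nearly parallel to each factor were named, by the smallest root mean square difference of centred values. For Ahr these were Psen2 (0.133), Itga3 (0.136) and Ece1 (0.153). Psen2, a presenilin gene, stood at 588 and 623 in unstimulated WT, 206 and 220 in unstimulated DKO, 344 and 326 in stimulated WT and 211 and 187 in stimulated DKO libraries, so that unstimulated WT was highest and stimulated WT next, as for Ahr. For Tbx21 they were Il12rb1 (0.390), Gm35315 (0.465) and 1190007I07Rik (0.467), and for Eomes C79130 (0.336), Gm42602 (0.396) and D830024N08Rik (0.401). Several of these rested on few reads in some libraries. C79130 had 2 and 3 reads in unstimulated WT libraries. In unstimulated DKO libraries the lowest count was 1 read for 1190007I07Rik and 5 reads for both Gm35315 and Gm42602. Parallels were closer for Ahr than for either T-box gene, whose counts were lower and whose replicates varied more.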

How the data were processed

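Single-end RNA sequencing of sorted Treg cells was analysed from a deposited table of signal values, in which the authors had divided read counts per gene by 1 size factor per library. The study's methods name Bowtie, NCBIM37, removal of duplicates and HTSeq, whereas the submitters' processing notes name bcl2fastq 1.8.4, STAR 2.7, DESeq2 and mm10, and this difference was not resolved. Whole reads were recovered by division, with 100% of values whole within 0.01. After adding a pseudocount of 1, log2 values of all 8 libraries entered 1 linear model in limma 3.58.1 with a variance trend (R 4.3.3), restricted to the 15419 genes averaging 10 or more, with Benjamini-Hochberg adjustment and a 1.5-fold minimum. edgeR 4.0.16 and DESeq2 1.42.0 were run on the recovered reads, and scripts were tested on simulated data. Other pseudocounts, filters and scalings, fits to 4 libraries, the replicate block and leaving out each library were alternatives. Groups followed the labels, which do not state separate cultures, so p-values measure the spread between these pooled samples. The members, gene lists and tests were chosen with earlier results of these data known. Named genes were the 3 factors, genes of the lists and, for each factor, the 3 most parallel genes. Of 52459 symbols, 35095 matched RefSeq (GRCm38.p6), the source of positions and promoter windows, and 28801 matched GENCODE M1, the source of exon lengths. Intervals on reads cover counting error only. Results on some single genes of the lists are not reported here.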

Additional observations from a re-analysis of the deposited data

How the results depend on the processing

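The 15 results on Tbx21, Eomes and Ahr were recomputed under 205 alternatives in all, of which 183 kept direction and call, 8 lost a call, 9 gained one and 5 changed sign. With single libraries left out, the log2 values of Tbx21 ranged from -2.46 to -0.25 for genotype at rest and from -0.48 to 1.73 for the interaction, which turned negative without unstimulated DKO replicate 2. Those of Eomes ranged from -0.11 to 1.68 for stimulation in WT cells and from 1.17 to 2.61 in DKO cells, where the call appeared without unstimulated DKO replicate 1 (adjusted p = 0.0278, limma). Those of Ahr ranged from -1.76 to -1.61 for genotype at rest, -1.15 to -0.65 after stimulation, -0.89 to -0.74 for stimulation in WT and -0.29 to 0.22 in DKO cells, where the sign turned without unstimulated (0.04) or stimulated (0.22) DKO replicate 2. Equal totals moved the last to 0.36, that is 0.01 relative to the median of all genes (0.35), and stimulation in WT cells to -0.30, with the call lost, as did quantile scaling (-0.61). DESeq2 called Ahr between stimulated genotypes (-0.88). Eomes was called for stimulation in DKO cells with a pseudocount of 5 (1.797), equal totals (2.27), quantile scaling (1.90), DESeq2 (1.77) and the replicate block (1.89). The causes were not tested. With genes of a mean of at least 100, Eomes was not tested.

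The unstimulated groups share no replicate numbers. Same-numbered libraries of the other groups share only a number, and their deviations correlated across genes at 0.167 (stimulated WT and DKO) and 0.256 (both DKO groups). The replicate block moved genotype calls after stimulation from 25 to 45 higher and from 17 to 43 lower, called Il12rb2 there (1.54, limma), and changed the call of no factor but that of Eomes (adjusted p = 0.0201).

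Over all genes, counts depended on the setting. Genotype calls ranged from 0 to 521 higher and 8 to 924 lower at rest, and from 0 to 251 and 0 to 551 after stimulation, against 213, 517, 25 and 17. Stimulation calls ranged from 344 to 4258 higher and 580 to 2746 lower in WT cells (1580 and 2013), and from 880 to 3791 and 872 to 2442 in DKO cells (1997 and 1855). Interaction calls rose to 179 higher and 17 lower without unstimulated DKO replicate 2. With 2 libraries a group, the 95% intervals of the genotype differences included 0 for Tbx21 in both states and for Eomes at rest.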
